A study of Mus musculus with 80 samples.

Results

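The 7 genes described here belong to the sterol branch of isoprenoid metabolism. They are the regulators Srebf2 and Insig1 and the synthesis enzymes Hmgcs1, Idi1, Fdft1, Sqle and Cyp51. They were taken from the gene count table by symbol, 7 of 78275 listed genes, and all 7 passed the filter on low counts that left 21187 genes for testing. Fdft1 was also read from the exon count table, where its 17 bins are listed under the gene identifier. The set was proposed under the heading of cholesterol synthesis and LDL uptake. No gene among the 7 itself takes up LDL, so the set is treated here as synthesis enzymes with their regulators.

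The libraries were made from livers of C57BL/6J mice, 8 to 12 weeks old at purchase, kept in a light/dark cycle and then moved to constant darkness. Control mice were fed ad libitum throughout, and fasted mice were fed ad libitum until CT10 and then had no food. CT is circadian time in hours. At each of 10 times from CT8 to CT44, every 4 h, each treatment was represented by 2 males and 2 females, 1 mouse a library, which gives 80 libraries. Mice sampled at CT8 under the fasted title still had food. All mice shared the same strain, chow and darkness, and the tissue was a piece of whole left lobe, so that fewer cells of a type and less RNA per cell cannot be told apart.

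Cholesterol is built from acetyl-CoA through mevalonate, isoprenoid diphosphates, squalene and lanosterol. SREBP2, the product of Srebf2, is the transcription factor that drives the genes of this route and of lipoprotein uptake. When sterols are plentiful, INSIG proteins hold the precursor and its escort SCAP in the endoplasmic reticulum; when sterols fall, the precursor travels to the Golgi and is cut into its active form. Insig1 is itself a target of SREBP2, and the liver is a main site of cholesterol synthesis.

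The promoter sequences below are shown because the members moved together and 2 of them hold the letters of a sterol regulatory element. RefSeq promoter windows of 300 bases, from 250 bases before the annotated start, matched 5 of the 7 members, and Fdft1 and Sqle had none. Capitals mark each match in the printed bases, on either strand, to TCACCCCA (the core of the sterol regulatory element, held by 1.56% of 32851 windows), CCAAT (read by NF-Y, held by 37.4%) and CACGTG (the E-box read by CLOCK and BMAL1, held by 7.15%). Only bases upstream of the gene start in GENCODE M21 are printed, 5′ to 3′, in build GRCm38.p6.
Srebf2, chr15:82147019-82147180, plus strand: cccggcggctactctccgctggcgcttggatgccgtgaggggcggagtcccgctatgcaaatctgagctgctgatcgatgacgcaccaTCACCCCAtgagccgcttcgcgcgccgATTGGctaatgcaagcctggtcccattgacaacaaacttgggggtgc
Insig1, chr5:28071162-28071362, plus strand: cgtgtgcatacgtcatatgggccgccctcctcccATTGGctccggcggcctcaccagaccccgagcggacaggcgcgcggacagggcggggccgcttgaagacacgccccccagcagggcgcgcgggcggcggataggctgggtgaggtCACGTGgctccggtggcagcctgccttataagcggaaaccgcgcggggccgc
Hmgcs1, chr13:119690101-119690350, plus strand: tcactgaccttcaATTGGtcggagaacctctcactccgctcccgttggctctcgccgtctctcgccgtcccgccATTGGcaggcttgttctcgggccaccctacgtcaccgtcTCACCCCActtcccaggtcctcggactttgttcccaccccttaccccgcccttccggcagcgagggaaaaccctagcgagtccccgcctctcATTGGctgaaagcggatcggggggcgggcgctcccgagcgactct
TCACCCCA began 162 bases before the start of Srebf2 and 137 bases before that of Hmgcs1. Insig1 held CACGTG from 101 bases before its start and no TCACCCCA. Idi1 held CCAAT at 45 and 14 bases and Cyp51 at 29 bases before the start, without either other motif. A match is a description of letters and not a site.

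Groups were taken from the titles. A label field that holds sex disagreed with the titles in 40 libraries, and a separate treatment field did so in 40. Xist and Ddx3y went with the titled sex in 80 of 80 libraries. Depth ran from 25534901 to 59927771 counts, and the median library held 42303883. The control CT8 library of female 2 held 31.31% ribosomal RNA against a median of 0.1008%, and it enters the CT8 values, the control sex difference, the control rhythm and the comparison of days. Fgf21, a hormone gene that fasting raises, was higher by 3.95 ± 0.25 (SE) on the log2 scale as the mean over CT12 to CT44, and Srebf1, which insulin raises, fell by 3.13 ± 0.10. All 5 hepatocyte markers were detected at a summed level of 56600 to 120214 CPM, a library's counts scaled to a common total, and 2 of them were higher and 1 was lower with fasting. Marker sums of other cells overlapped between treatments. For Kupffer cells they ran from 169 to 578 in controls and from 121 to 370 in fasted livers, with 4 of 5 markers lower, and for cholangiocytes from 24.6 to 66.0 and from 6.78 to 50.3, with 4 of 5 lower. Of the stellate cell markers 3 were lower and 1 was higher, of the endothelial markers 2 were lower and 2 higher, of the pancreas markers 1 was lower, and of the adipocyte markers 2 were tested and none was called. No marker was at 0 in every library. Their part in the results was not tested.

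All 7 members fell with fasting. As the mean of the times from CT12 to CT44, every member was lower in fasted livers at an adjusted p under the threshold of 0.05, against 32.9% of all genes tested. Among all genes 62.5% changed in either direction, and their median log2 change was -0.02. Levels in CPM use library sizes adjusted by the trimmed mean of M values; fold changes come from edgeR's quasi-likelihood fit, with Benjamini-Hochberg adjustment over all genes tested.

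**Figure D1:**
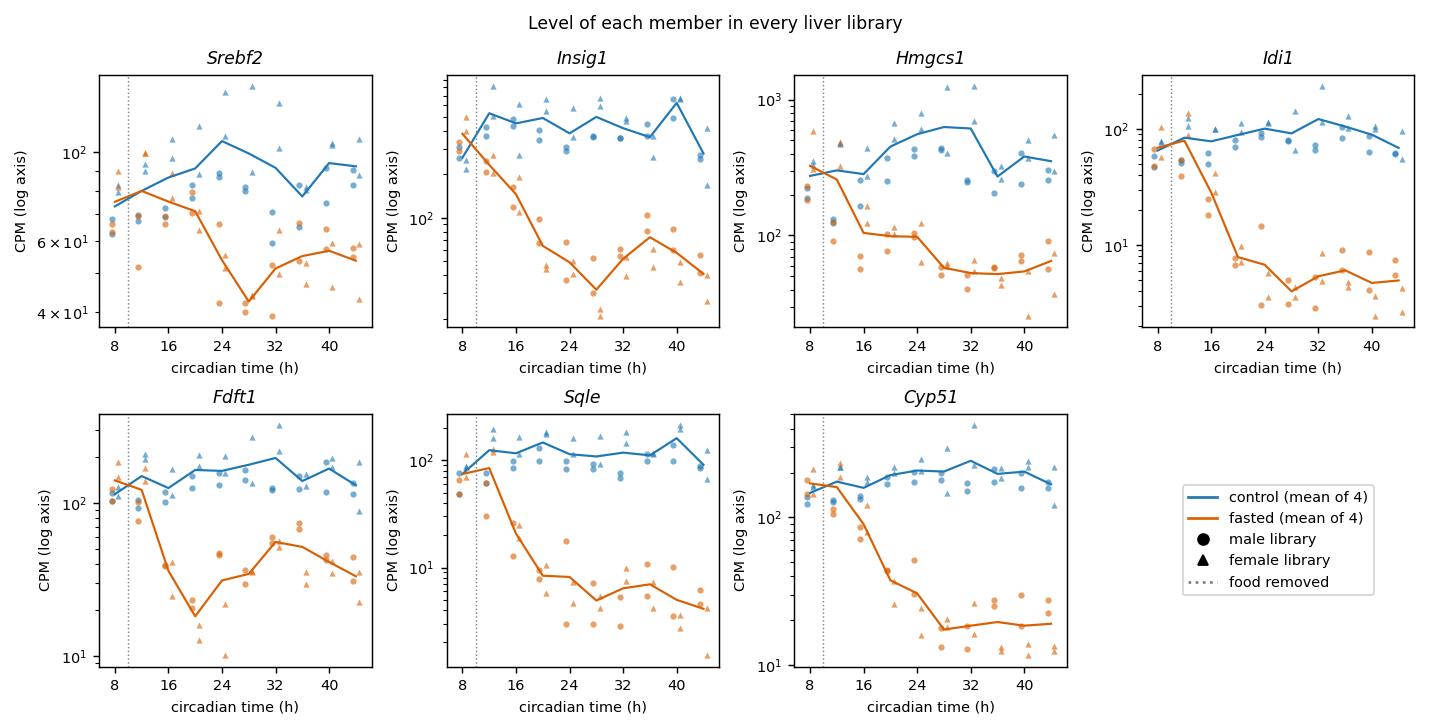
CPM on log axes against circadian time in hours for the 7 members, with 1 point for each of the 80 libraries (circles males, triangles females) and lines through the means of 4. Control and fasted points mix at CT8 for all 7 and at CT12 for all but Insig1, and they separate at every time from CT20 on for all but Srebf2.

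Sqle encodes squalene epoxidase, the first step that needs oxygen. Its level in 36 control libraries from CT12 to CT44 ran from 61.7 to 212 CPM with a median of 114 CPM. In the 36 fasted libraries it ran from 1.53 to 128 CPM with a median of 7.21 CPM. Its mean log2 change of -3.69 ± 0.13 (SE) was the deepest of the 7, and 0.184% of all genes fell further. Idi1 encodes the isomerase that makes dimethylallyl diphosphate, a building block of all longer isoprenoids. It fell by 3.36 ± 0.11 on the log2 scale, from a control median of 89.8 CPM to a fasted median of 5.96 CPM. The deepest falls were thus in Sqle and Idi1, whose intervals overlap: -3.94 to -3.44 for Sqle and -3.57 to -3.15 for Idi1.

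Insig1 fell by 2.69 ± 0.08 on the log2 scale, Cyp51 by 2.62 ± 0.07 and Hmgcs1 by 2.29 ± 0.09. Cyp51 encodes the demethylase of lanosterol, and Hmgcs1 the synthase that makes HMG-CoA from acetyl-CoA. Fdft1, the squalene synthase at the branch to sterols, fell by 1.94 ± 0.07. Srebf2, the regulator, fell by 0.61 ± 0.04, the smallest change of the 7, and 12.5% of all genes fell further. The 95% intervals of Insig1 (-2.86 to -2.53), Cyp51 (-2.76 to -2.48) and Hmgcs1 (-2.47 to -2.10) followed each other, and that of Hmgcs1 did not overlap either of the others. Mean CPM in fasted livers over CT12 to CT44 was 13.7% of control for Sqle, 17.8% for Idi1, 18.5% for Insig1, 21.9% for Hmgcs1, 23.5% for Cyp51, 29.9% for Fdft1 and 65.9% for Srebf2. These means give high values more weight than the log2 changes do, and they order Hmgcs1 and Cyp51 the other way. They include CT12, where Sqle was still at 68.2% of control, against 5.72% at CT20 and 4.54% at CT44.

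Per kilobase of annotated exon, the order of the members changed with fasting. In controls Insig1 was highest at 145 CPM per kb, followed by Hmgcs1 at 92.7, Cyp51 at 44.1, Fdft1 at 37.2, Idi1 at 26.3, Sqle at 21.8 and Srebf2 at 12.7 CPM per kb. In fasted livers Insig1 and Hmgcs1 still led at 26.8 and 20.3 CPM per kb, followed by Fdft1 at 11.1 and Cyp51 at 10.4. Srebf2 stood at 8.35 CPM per kb and thereby above Idi1 at 4.69 and Sqle at 2.99 CPM per kb. The regulator thus passed from the lowest level of the 7 to the third lowest. Lengths are those of the exons of all annotated transcripts joined, so a gene that uses short isoforms is understated.

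The members were not all called from the same time on, and onset was not compared between members by a test. At CT8, before food was removed, no member was called, against 1.33% of all genes called in either direction. At CT12, 2 h after food removal, Insig1 alone of the 7 was called lower, against 0.684% of all genes. Its control values were 814 and 502 CPM in females and 427 and 367 CPM in males, and its fasted values were 203, 271, 208 and 248 CPM in the same order. No fasted value reached the lowest control value. The change was -1.14 ± 0.23 on the log2 scale (edgeR adjusted p = 0.0045), and it lost the call without male replicate 1 (adjusted p = 0.23) or male replicate 2 (0.20) and in the fit of CT12 alone (0.076). The other 6 members stood between -0.57 (Sqle) and -0.03 (Srebf2) at CT12 and missed the threshold.

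At CT16, 6 of 7 members were called lower, against 11.9% of all genes. Sqle was the deepest at -2.46 ± 0.35, followed by Fdft1 at -1.79 ± 0.21, Insig1 at -1.63 ± 0.24, Hmgcs1 at -1.50 ± 0.27, Idi1 at -1.44 ± 0.29 and Cyp51 at -0.82 ± 0.20. Cyp51 lost the call at this time without male replicate 2 (adjusted p = 0.085). Srebf2 stood at -0.18 ± 0.13 (adjusted p = 0.36). The 6 other members were thus called lower at a time when the Srebf2 transcript had not passed the test. The interval for Srebf2 allowed a fall of up to 0.45 on the log2 scale, and the order of the falls was not tested.

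From CT20 to CT44 all 7 members were called lower at each of the 7 times. The background share of genes called lower was 19.1% at CT20, 11.9% at CT24, 11.1% at CT28, 9.3% at CT32, 14% at CT36, 21.2% at CT40 and 20.7% at CT44. Srebf2 at CT20 was near the threshold at -0.35 ± 0.13 (adjusted p = 0.036), and its call there was lost without either male replicate, without female replicate 2 and in the fit of CT20 alone (adjusted p from 0.057 to 0.17). At CT36 it was lost without male replicate 1 (0.20). Over the 9 times and 7 members, all 4 fasted libraries lay below all 4 control libraries in 52 of 63 cases, against 10.6% of all gene and time pairs. Srebf2 gave 4 of 9 such times, Hmgcs1 7, Insig1 9 and each of the other 4 members 8.

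**Figure D2:**
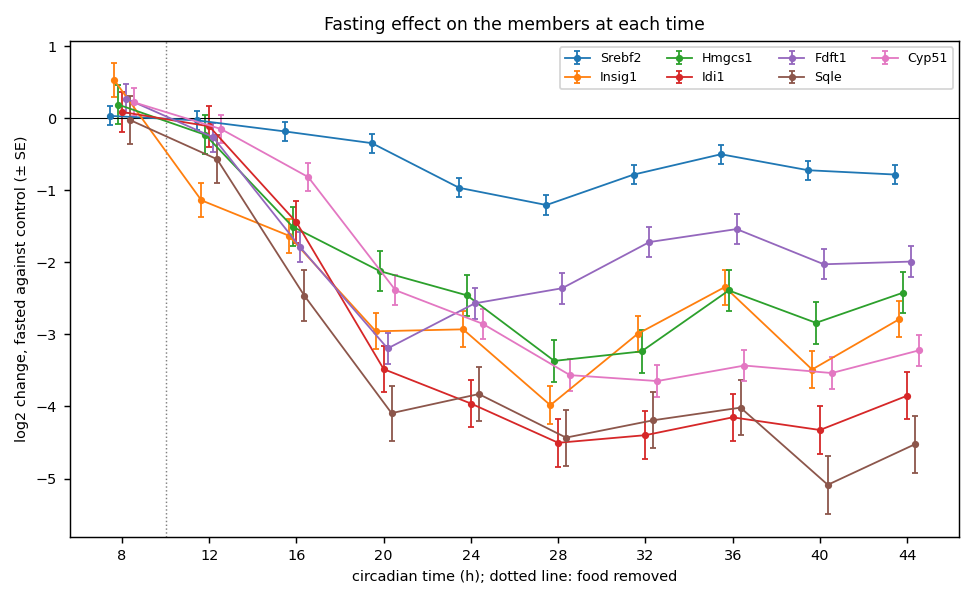
Log2 change of fasted against control livers with its standard error, plotted against circadian time in hours for each of the 7 members. Insig1 lies lowest of the 7 at CT12. Fdft1 reaches its lowest value at CT20 and lies higher from CT32, Sqle reaches -5.09 at CT40, and Srebf2 is lowest at -1.20 at CT28.

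CT28 shows the members near their lowest. Sqle was at 167 and 93.0 CPM in the control females and at 91.8 and 82.4 CPM in the control males, against 5.39 and 4.22 CPM in the fasted females and 2.96 and 7.13 CPM in the fasted males. Idi1 was at 142, 65.8, 80.5 and 78.4 CPM in controls against 4.34, 3.56, 3.13 and 4.97 CPM in fasted livers, in the same order. Cyp51 was at 294, 148, 199 and 179 CPM against 20.4, 18.2, 13.1 and 17.7 CPM. For these 3 enzymes the fasted libraries lay far below the lowest control. Srebf2 was at 147, 89.2, 82.0 and 79.9 CPM against 43.9, 43.7, 40.0 and 42.0 CPM, a smaller gap with narrow fasted values. Control female 1 at CT28 was the highest of the 4 controls for 6 of the 7 members, Insig1 being the exception. For Hmgcs1 it stood at 1240 CPM against 406, 438 and 426 CPM in the other controls, and the 4 fasted livers were at 59.5, 62.2, 58.4 and 51.2 CPM.

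Fdft1 had its lowest fasted mean earlier than any other member. It reached its lowest level at CT20, with 12.8 and 15.8 CPM in fasted females and 23.4 and 20.6 CPM in fasted males. The controls at CT20 were at 175, 206, 126 and 151 CPM. By CT32 the 4 fasted libraries had 51.3, 56.6, 55.1 and 59.6 CPM, all above every fasted library of CT20. The change went from -3.19 ± 0.22 at CT20 to -1.72 ± 0.21 at CT32 and -1.54 ± 0.21 at CT36. Over the same times Cyp51 went from -2.39 ± 0.21 to -3.65 ± 0.22, so the pair moved in opposite directions. A partial rise during the fast was not particular to Fdft1. The fasted mean of Insig1 went from 31.8 CPM at CT28 to 73.3 CPM at CT36, and stood at 40.9 CPM at CT44. A fasting effect that differed between the 9 times was called for 7 of 7 members, against 33.7% of all genes, with adjusted p between 5.7e-14 for Cyp51 and 2.8e-05 for Srebf2.

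The fall was larger in females for every member. The difference of the fasting effect, females minus males, was called for 7 of 7 members, against 7.02% of all genes called more negative in females. Insig1 fell by 3.11 ± 0.12 on the log2 scale in females and by 2.28 ± 0.11 in males, a difference of -0.83 ± 0.15 (edgeR adjusted p = 0.00033). Fdft1 differed by -0.83 ± 0.14 (adjusted p = 6e-05), Sqle by -0.75 ± 0.23 (0.025), Idi1 by -0.69 ± 0.20 (0.016), Hmgcs1 by -0.69 ± 0.18 (0.0083), Cyp51 by -0.63 ± 0.13 (0.0012) and Srebf2 by -0.36 ± 0.09 (0.0051). All 7 directions held in every alternative run, and the calls did not: without male replicate 1 only Fdft1 was called, and without male replicate 2 only Fdft1 and Cyp51. With limma, 5 of 7 were called, Idi1 (adjusted p = 0.058) and Sqle (0.072) falling outside, and both also lost the call without female replicate 1.

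**Figure D3:**
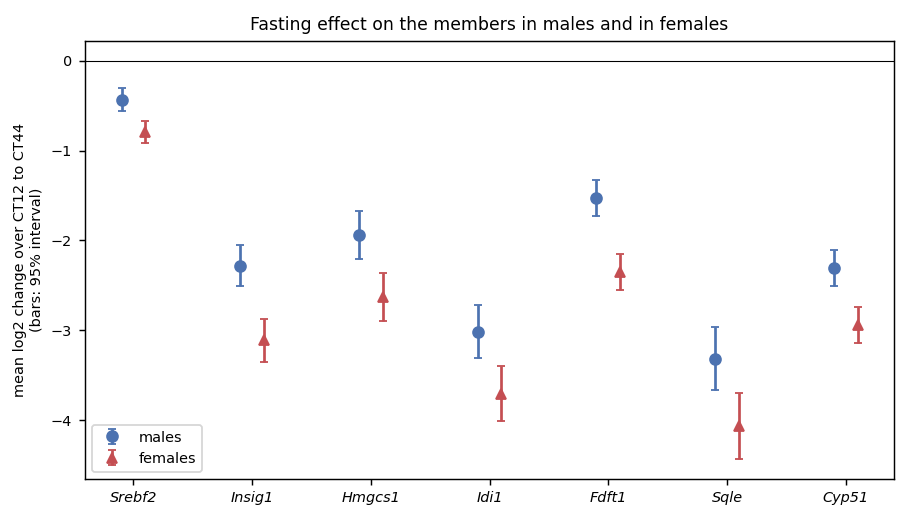
Mean log2 change from CT12 to CT44, fasted against control, in males (circles) and females (triangles), with 95% intervals from the fit of all 80 libraries. The female value is the lower one for each of the 7 members, from -0.79 against -0.43 for Srebf2 to -4.06 against -3.31 for Sqle.

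Control females were higher for 7 of 7 members, against 20.6% of all genes higher in females. The difference was largest for Hmgcs1 at 0.93 ± 0.12 on the log2 scale and smallest for Insig1 at 0.30 ± 0.10, and Insig1 lost the call without either male replicate or without female replicate 2 (adjusted p from 0.071 to 0.25). Hmgcs1 ran from 259 to 1257 CPM in 18 control females with a median of 492 CPM, and from 124 to 438 CPM in 18 control males with a median of 255 CPM. The ranges overlapped. The female mean was above the male mean at all 10 control times for 6 of 7 members, and at 7 of 10 for Insig1. As the mean over CT12 to CT44, 3 of 7 members differed between the sexes in fasted livers, against 38% of all genes called in either direction. All 3 were lower in females: Insig1 at -0.47 ± 0.11 (edgeR adjusted p = 0.00066), Fdft1 at -0.36 ± 0.10 (0.0022) and Cyp51 at -0.26 ± 0.09 (0.025). The direction varied with time. The female mean of Cyp51 was 1.93 times the male mean at CT12 and 0.51 times at CT44. With CT8 included, fasted females were higher at 5 of 10 times for Cyp51 and at 3 of 10 each for Insig1 and Fdft1. The other 4 members missed the threshold in fasted livers, with 95% intervals from -0.42 to 0.26 for Sqle and from 0.0026 to 0.51 for Hmgcs1.

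Control means varied with time, from 271 to 627 CPM for Hmgcs1 and from 260.2 CPM at CT8 to 622 CPM at CT40 for Insig1. No member was called between the 4 later and the 4 earlier times, CT32 to CT44 against CT8 to CT20. The share of all genes called in that comparison was 0%, with 2222 genes at an unadjusted p under 0.05, Hmgcs1 and Cyp51 among them, and 0 again with DESeq2 size factors. Without female replicate 1 the count was 234, without male replicate 2 it was 9 and without female replicate 2 it was 5, with no member among them. A 24 h cosine was called in controls for 2 of 7 members, against 41.8% of all genes tested. The fitted spans of the members not called ran from 0.18 log2 units for Cyp51 to 0.44 for Sqle. On simulated data this fit recovered 14% of rhythms that spanned 1.5-fold, so small rhythms could be missed. Hmgcs1 peaked at CT1.79 and spanned 1.04 log2 units from trough to peak (adjusted p = 0.0014), and Srebf2 peaked at CT23.5 and spanned 0.35 (0.0043). The call for Srebf2 was lost without male replicate 2 (0.065), without female replicate 2 (0.058), in females alone (0.14) and with no sex in the model (0.086), and that for Hmgcs1 in females alone (0.052). Insig1 was called in males alone (0.031), as was Sqle (0.047), which was also called without female replicate 1 (0.0062).

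In fasted livers a cosine around a straight line over time was called for 6 of 7 members, against 47.1% of all genes. Hmgcs1 was the exception (adjusted p = 0.36). The fitted slope of the line was negative for each of the 7, from -0.26 log2 units per 24 h for Fdft1 to -2.48 for Sqle, and it was not tested. For Fdft1 it does not describe a steady fall. The fasted mean of Fdft1 was 122 CPM at CT12, 18.2 CPM at CT20 and 55.7 CPM at CT32. The cosine differed between treatments for 7 of 7 members, against 21.6% of all genes, with adjusted p from 0.00037 for Srebf2 to 0.041 for Sqle. Sqle lost that call without male replicate 2 or either female replicate (0.11 to 0.23), and Hmgcs1 without male replicate 2 (0.065) or female replicate 1 (0.16). A cosine over 9 times cannot be told apart from a fall that slows, and no clock phase is read from it.

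The spread between mice of the same treatment, time and sex was ordinary for most members. In controls the standard deviation on the log2 scale ran from 0.19 for Srebf2 to 0.42 for Hmgcs1, where the median of all genes was 0.30. In fasted livers it ran from 0.21 for Srebf2 to 0.73 for Sqle, above 85.8% of all genes. At CT24 Sqle stood at 17.7 and 2.95 CPM in the fasted males and at 4.68 and 7.29 CPM in the fasted females, and at 99.0 and 82.3 CPM in the control males and 114 and 161 CPM in the control females.

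Most other enzymes of the route were lower too. From a list of 17 such genes, chosen with earlier results of these data known, 16 were lower, against 32.9% of all genes, and 1 was higher, and the list's median log2 change was -1.96, against -0.02 for all genes. Fdps, which makes farnesyl diphosphate, fell by 3.56 ± 0.09 on the log2 scale, from a control mean of 259.5 CPM to a fasted mean of 43.8 CPM. Msmo1, a sterol oxidase, fell by 2.69 ± 0.10. Acat2, the thiolase at the entry, fell by 1.68 ± 0.08, Pmvk, a mevalonate pathway kinase, by 2.00 ± 0.06 and Lss, the lanosterol synthase, by 1.96 ± 0.07. Hsd17b7, a late sterol reductase, stood apart: it fell by 0.15 ± 0.05 as a mean and was higher by 0.43 ± 0.14 at CT20. Its control values ran from 62.7 to 186 CPM and its fasted values from 54.6 to 137 CPM. At CT12, 2 of the 17 genes were called lower, against 0.684% of all genes. None of the 6 named here was among them, with changes from -0.60 for Fdps to -0.13 for Hsd17b7.

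**Figure D4:**
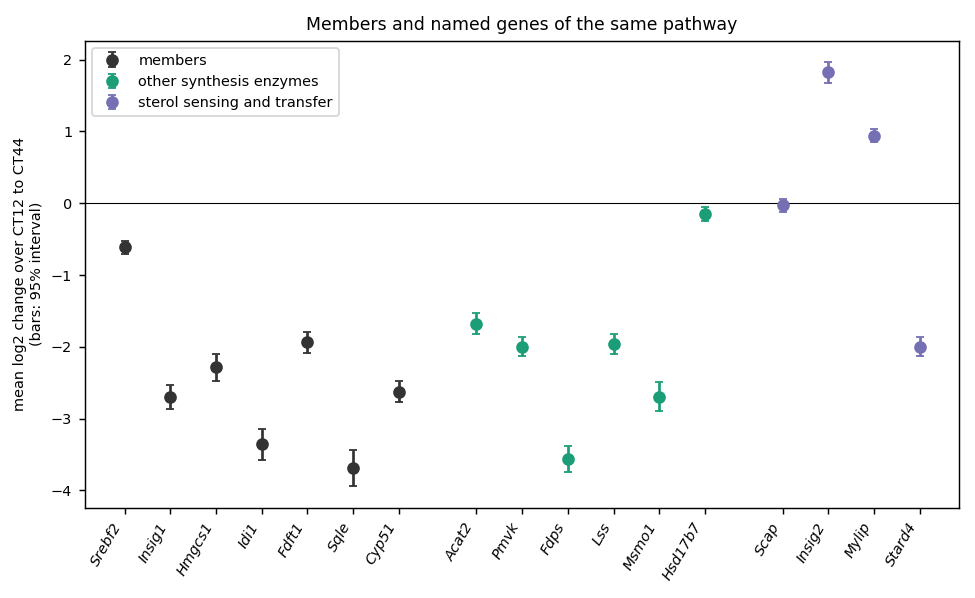
Mean log2 change from CT12 to CT44 with its 95% interval for the 7 members (black), 6 other synthesis enzymes (green) and 4 genes of sterol sensing and transfer (violet). Every synthesis enzyme but Hsd17b7 lies at or below -1.68, while Insig2 at 1.82 and Mylip at 0.94 lie above 0.

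Of 14 genes of sterol sensing, precursor processing and uptake, 7 were higher, 4 were lower and 3 were not called, with a median of 0.04 on the log2 scale. That is 11 of 14 called, against 62.5% of all genes, and nothing is read from the share. Insig2, the paralogue of Insig1 with the same retention role, rose by 1.82 ± 0.07 while Insig1 fell. Insig2 was called at CT12 (0.81 ± 0.21, edgeR adjusted p = 0.036), the time at which Insig1 was called lower. Its fasted values there, 49.8 to 162 CPM, overlapped the control values, 54.1 to 75.5 CPM. The Insig1 call at CT12 was itself lost in some alternative fits. At CT20 Insig2 ran from 185 to 300 CPM in controls (mean 231 CPM) and from 958 to 2011 CPM in fasted livers, without overlap. Mylip, a ubiquitin ligase that promotes the breakdown of lipoprotein receptors, rose by 0.94 ± 0.04. Stard4, a cholesterol transfer protein, fell by 2.00 ± 0.07, from a control median of 140 CPM to a fasted median of 31.6 CPM. Scap, the escort of the precursor, stood at -0.03 ± 0.04 (adjusted p = 0.62), with control values from 110 to 243 CPM and fasted values from 117 to 290 CPM.

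Outside these lists, the genes whose 20 means of treatment and time were most like the mean standardized profile of the members were Paox (Pearson r = 0.987), Rdh11 (0.986), Gm3571 (0.984), Gm5873 (0.982) and Cyb5b (0.981). These are descriptions over 20 group means that share the same libraries. The members' own r with that profile ran from 0.921 for Fdft1 and 0.933 for Srebf2 to 0.993 for Sqle.

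Exon bins add a second reading of the same libraries. Bin counts of a library summed to as many as 115551000, against at most 59927771 in the gene table. A read can thus count in more than 1 bin, and neighbouring bins are not independent. Of 80 columns of the exon table, 77 went best with the gene-table library of the same label, and 3, all fasted CT40, went with another library of that group. Fasted CT40 was therefore treated as 1 group without sex. Relative use of bins differed between treatments for 5 of 7 members, against 14% of the 13889 genes tested. These were Fdft1 (adjusted p = 5.8e-122, edgeR), Hmgcs1 (1.5e-37), Cyp51 (1e-08), Srebf2 (0.0005) and Idi1 (0.047). Insig1 (1) and Sqle (0.78) were not called. Idi1 lost the call whichever of the 4 replicates by sex was left out (adjusted p from 0.20 to 1) and with limma (0.092), and Srebf2 without male replicate 2 (0.060).

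Fdft1 changed its relative use of some bins, which lie toward the 5′ end if the bins follow the annotated order described below. Bins 2 to 11 fell together, to between 24.8% and 32.6% of their control level. Over CT12 to CT44 together, bin 12 rose instead, to 178% of its control level, from a mean of 134 counts in controls to 221 counts in fasted livers. It did not rise at every time. Its mean was below control at CT16 (1.61 against 1.99 CPM of the exon table) and at CT20 (0.981 against 1.29 CPM). Bins 13, 14 and 15 fell further than the rest, to 13.7%, 14.5% and 17.7%. Relative to the whole gene, bin 12 rose by 2.77 on the log2 scale (adjusted p = 6.9e-122 over all bins), and bins 13, 14 and 15 fell by 1.38, 1.04 and 0.65. No other of the 14 bins tested was called, and 2.04% of all bins were. Bins 13, 14 and 15 may share reads. Bins 1, 16 and 17 held means under 1 count.

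Bin positions are not given with the counts. The GENCODE M21 model of Fdft1, a gene on the minus strand of chromosome 14 (63145150 to 63179578, GRCm38), can be divided at every exon border into 17 segments, as many as the bins, and the same equality held for 6 of 7 members. If the bins are these segments in the order of position, bin 12 is chr14:63164630-63165036, 407 bases joined to the 5′ side of the exon of bin 11 and present in 1 of 4 annotated transcripts, Fdft1-203, which is annotated as a retained intron and starts there. Bin 13 is then chr14:63177683-63177793, the exon with the start codon, and bins 14 and 15 its extensions upstream. The sequences below show how either part joins the same exon, whose first 40 bases are in capitals. They are from GENCODE M21, 5′ to 3′ on the gene's strand.
Fdft1-203, last 100 bases of segment 12 and exon of segment 11: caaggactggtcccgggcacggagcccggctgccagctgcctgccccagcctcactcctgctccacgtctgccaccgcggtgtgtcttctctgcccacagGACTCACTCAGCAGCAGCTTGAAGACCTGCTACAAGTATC
Fdft1-201, 99 coding bases of segment 13 and exon of segment 11: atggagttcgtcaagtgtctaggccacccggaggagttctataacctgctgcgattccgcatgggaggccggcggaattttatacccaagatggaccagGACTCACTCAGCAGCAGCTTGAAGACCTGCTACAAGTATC
Both strings end in the same exon and differ before it, and reads over either part count toward Fdft1.

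**Figure D5:**
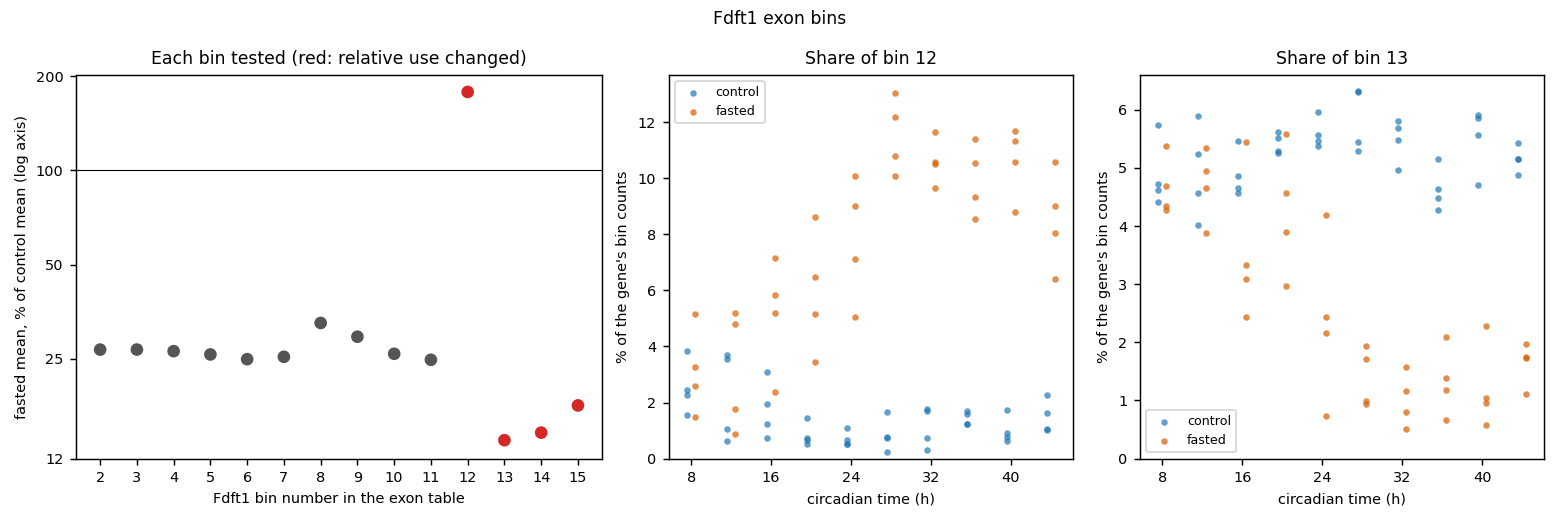
Left, the mean of fasted livers as a percentage of the control mean from CT12 to CT44 (log axis) for the 14 Fdft1 bins tested, with bins whose relative use changed in red. Middle and right, bins 12 and 13 as a percentage of the gene's bin counts in each library against circadian time in hours, where bin 12 runs from 10.1% to 13.1% in fasted livers at CT28 and bin 13 from 0.935% to 1.94%.

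The change in use came with time. At CT8 bin 12 held 2.27%, 1.57%, 3.85% and 2.44% of the Fdft1 bin counts in control females and males, and 3.25%, 1.48%, 2.58% and 5.17% in livers titled fasted. At CT16 its control shares were 1.24%, 0.738%, 3.08% and 1.96%, and its fasted shares 5.21%, 2.39%, 5.84% and 7.16%, still with overlap. At CT28 they were 0.237%, 1.65%, 0.741% and 0.767% against 10.8%, 12.2%, 13.1% and 10.1%. From CT20 to CT44 every fasted share of bin 12 lay above every control share, and from CT24 on every fasted share of bin 13 lay below. How many of all bins separate in this way was not computed. Both bins were among those called in the same data, so this is a description only. Mean shares of bin 12 in fasted livers were 3.17% ± 2.16 (SD, n = 4) at CT12, 5.93% ± 2.19 at CT20, 11.5% ± 1.35 at CT28 and 8.52% ± 1.74 at CT44. In CPM of the exon table, bin 12 in fasted livers went from 0.981 ± 0.530 at CT20 to 5.32 ± 0.260 at CT32, while bin 13 stood at 0.654 ± 0.139 and 0.511 ± 0.246. In controls bin 12 stood at 1.29 ± 0.323 at CT20 and 1.72 ± 0.537 at CT32. The larger fasted share of bin 12 at CT20 thus came with a lower level of the bin itself. The higher Fdft1 level after CT20 was accompanied by bin 12 and not by bin 13. Bin 2, which the assumed order places at the 3′ end, went from 3.16 ± 0.805 to 10.3 ± 0.260 CPM. By that order, Fdft1-203 as annotated holds segments 9 to 12 and not segment 2. Bin 9, held by Fdft1-202 and Fdft1-203 alone, stood at 0.21 on the log2 scale relative to the gene and was not called. Which transcripts the reads came from was not tested.

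In Hmgcs1, the lowest-numbered bins departed from the rest. Bins 1, 2 and 3 stood at 110%, 91.8% and 91.9% of control, while bins 6 to 17, but for the sparse bin 11, stood between 19.97% and 20.9%. Relative to the gene they rose by 2.46, 2.22 and 2.22 on the log2 scale (adjusted p = 6e-28, 2.1e-37 and 1.3e-37). They are thin, at means of 18.1, 38.9 and 39.1 counts in controls and 19.0, 33.6 and 33.8 in fasted livers. By the same order of position they are 67, 16 and 2 bases at the start of the first exon, downstream of the promoter printed above. At such lengths the bins may hold largely the same reads, so their p-values are not independent. Under a filter of 10 counts in every library these bins left the test, as did Fdft1 bins 13 to 15, and Hmgcs1, Cyp51 and Idi1 were no longer called.

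In Cyp51, bin 20 rose by 0.66 on the log2 scale relative to the gene (adjusted p = 5e-09), at 32.3% of control where the tested bins up to bin 17 were at 21.0% to 22.6%. By position it would be the 5′ end of the first exon. In Srebf2, bins 17 to 22 fell by 0.21 to 0.30 and bins 32 and 33 rose by 0.22 and 0.23 relative to the gene. These are small next to the changes in Fdft1. Insig1 shows what an even fall looks like, with its 7 bins between 15.1% and 17.9% of control.

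Some members share sequence or position with other genes, and the counting is not stated to use strand. Fdft1 overlaps 774 bases of Ctsb on the other strand at its 3′ end, and Ctsb had 377% of the counts of Fdft1 in controls and 983% in fasted livers. Ctsb fell by 0.38 ± 0.04 on the log2 scale. By the assumed order of bins, Fdft1 bin 2 holds nearly all of the overlap and bin 3 lies outside it, and both stood at 26.8% of control. Cyp51 overlaps 166 bases of Akap9 on the other strand at its 3′ end, and Akap9 rose by 0.40 ± 0.03. Idi1 has the pseudogenes Idi1-ps1 and Idi1-ps2, with 4.55% and 5.43% of its counts in controls and 4.71% and 30.1% in fasted livers. Idi1-ps1 fell by 3.53 ± 0.12, close to Idi1, and Idi1-ps2 stood at -0.02 ± 0.16. How their reads were divided was not tested, so the level of Idi1 in fasted livers is uncertain by that amount.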

How the data were processed

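Livers of 80 mice were sequenced after poly-A selection with a stranded kit. The authors deposited raw read counts per gene and per exon bin, and normalised values that were not used here. The submitters' processing notes name Trimmomatic, HISAT2, DESeq2 and build GRCm39. Versions, the counter and its strand setting are not given in the sources used here, and the article read with the series is a review without methods for it. Titles gave the groups.

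Counts were tested with edgeR 4.0.16 in R 4.3.3 (filterByExpr, TMM, quasi-likelihood test, Benjamini-Hochberg adjustment over all genes tested, threshold 0.05), and each combination of treatment, time and sex had its own mean. Exon bins were tested with diffSpliceDGE and Simes p per gene, and the dispersion trend was taken from 40000 bins. Rows outside the gene bins held 8.28% to 25.9% of the exon table (median 11.8%) and were left out. Alternatives used limma 3.58.1, DESeq2 1.42.0, other filters and left-out replicates. Totals of 25534901 to 59927771 counts bound the precision, and errors are between mice. No column was unmapped (0).

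Members and lists were chosen with earlier results of these data known. Named were the 7 members, 6 and 4 genes of the lists whatever they showed (1 more is not reported here), and the 5 most similar profiles. Positions and lengths are from GENCODE M21 on GRCm38, another build than the authors'. Same-numbered mice did not deviate together (r over 0.1 in 1 of 20 comparisons, -0.056 to 0.25), and no replicates were near-identical (lowest chi-square per gene 14.8). On simulated data 50% of 1.25-fold and 98% of 1.5-fold mean fasting effects were recovered among 19793 genes. At CT20 4% of 1.5-fold and 52% of 2-fold effects were recovered. For the control rhythm it was 14% of 1.5-fold and 94% of 2-fold spans from trough to peak.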

Additional observations from a re-analysis of the deposited data

Results flagged for a closer look

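Of 140 groups of 4 libraries, 5 held a library far from the other 3, where chance gives about 7. Fdft1 was lowest in fasted CT16 female 1 (24.7 CPM against 39.0 to 41.3 CPM) and in fasted CT28 male 1 (29.7 against 35.5 to 36.3 CPM). Hmgcs1 was highest in control CT28 female 1 (1240 against 406 to 438 CPM). Insig1 was lowest in control CT40 male 2 (492.5 against 658 to 676 CPM), and Srebf2 in control CT36 male 2 (65.1 against 80.6 to 82.8 CPM).

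The fasting effect differed between times for each member, with edgeR adjusted p of 2.8e-05 for Srebf2, 1.2e-07 for Insig1, 6.0e-07 for Hmgcs1, 3.5e-11 for Idi1, 4.2e-08 for Fdft1, 6.3e-08 for Sqle and 5.7e-14 for Cyp51. It also differed between the sexes, females minus males on the log2 scale, by -0.36 for Srebf2, -0.83 for Insig1, -0.69 for Hmgcs1, -0.69 for Idi1, -0.83 for Fdft1, -0.75 for Sqle and -0.63 for Cyp51.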

How the results depend on the processing

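No called result changed direction under the alternatives run. Of the uncalled ones, Srebf2 at CT12 went from -0.03 to 0.05 on the log2 scale without male replicate 1, and Idi1 at CT12 from -0.11 to 0.09 without female replicate 2. A minimum change of 1.5 times left 4359 of 13233 genes for the mean fasting effect, and 3595 of 8417 genes and 1 member for the control rhythm. The control rhythm was called for 5104 genes and 4 members in males alone, for 4692 genes and 0 members in females alone, and for 1 member with no sex in the model. Without the control CT8 library of female 2, 1 gene differed between days. At 10 counts in every library, exon usage differed in 949 genes and 2 members.

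Leaving out 1 replicate of a sex gave 1186 to 7051 genes (7130 with all) for the difference between times, 238 to 2473 genes (2621) and 1 to 7 members for that between sexes, 0 to 234 genes (0) between days, and 25717 to 42287 calls (48836) summed over 9 times. It gave 1 to 3 members for the control rhythm, 2461 to 3374 genes (4537) for the rhythm difference, and 1103 to 1475 genes (1946) and 3 to 4 members for exon usage. The causes were not tested. These fits hold fewer libraries.

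The replicate block gave 13189 genes for the mean effect, 6878 between times, 2545 between sexes, 48212 summed over times, 8182 for the control rhythm, 4450 for the rhythm difference and 1942 for exon usage, and it moved no count of members called. The labels say only that numbered mice are separate. The 4 mice per group and time limit single times most.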
